A study of Homo sapiens with 6 samples.

Results

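Hyaluronan is a long, unbranched sugar polymer of the extracellular matrix. It is made at the plasma membrane by the hyaluronan synthases, cut by hyaluronidases, bound by receptors such as CD44, and cross-linked by matrix proteins. The genes followed here were 10 members of this system, chosen by name: the synthase genes HAS1, HAS2 and HAS3, the hyaluronidase genes HYAL1, HYAL2 and HYAL3, CEMIP, the receptor genes CD44 and HMMR, and TNFAIP6. Of these 10 genes, 7 had a probeset whose annotation gave their symbol alone, each with 1 such probeset, out of 18404 genes in all. HAS1, HYAL1 and HYAL3 were not analysed here.

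The cells were PC-3, an established androgen-independent human prostate carcinoma line, grown in DMEM with 10% fetal bovine serum. The study asked how menthol, the cooling compound of mint, alters gene expression in this line. The vehicle group (3 arrays) received ethanol at 0.1% and the menthol group (3 arrays) received menthol carried in the same ethanol, so that ethanol was common to both groups. Neither the dose of menthol nor the length of treatment is given in the sources used here, and both groups are of 1 cell line, so the values describe that line. Whether replicates came from separate cultures is not stated, and p-values therefore reflect the spread among these arrays alone, which could be technical.

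Values are log2 intensities, on which a difference of 1 is a doubling, and differences are menthol minus vehicle. A gene is said to have risen or fallen where its adjusted p in limma, taken over all genes, was under 0.05. Array medians lay between 47.4 and 49.1 intensity units, and no array pair held identical values. The line's epithelial markers KRT8, KRT18 and EPCAM were bright, at or above the 95.9th percentile of genes by mean signal. All 3 rose with menthol (summed intensity 4800 to 5036 with vehicle and 7852 to 8039 with menthol). Of the androgen axis, KLK3 and KLK2 lay at the 32.2nd and 33.6th percentile and did not pass. Summed intensity over 6 fibroblast markers ran from 389 to 405 with vehicle and from 344 to 363 with menthol. Their median difference was 0.14, however, as COL1A2 and DCN rose and COL3A1 fell. COL1A1, the brightest of the 6, was lower in all menthol arrays but did not pass (-0.20, adjusted p = 0.0763 in limma). Over 4 leukocyte markers the summed intensity ran from 523 to 558 and from 621 to 673, and 1 of the 4, CD68, rose. Over 4 endothelial markers it ran from 84.9 to 89.3 and from 101 to 111, and 1 of the 4, PECAM1, rose (by 0.60, adjusted p = 0.000878 in limma). None of these was listed at 0, and LUM, DCN and PTPRC were at the 0.7th, 1.9th and 3.0th percentile. Their part in the results on hyaluronan genes was not tested.

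With menthol, 4 of the 7 measured members fell, 1 rose and 2 did not pass. TNFAIP6, whose product remodels hyaluronan with serum-derived protein chains, fell 2.84-fold, and HMMR, a hyaluronan-binding protein of the mitotic spindle, fell 2.03-fold. Both measured synthases fell, HAS3 by 1.49-fold and HAS2 by 1.42-fold, while the hyaluronidase gene HYAL2 rose 1.21-fold. Over all genes, 29.1% passed the threshold, 14.6% higher and 14.5% lower. The median percentile of the 7 members by signal was 75.5, and of the 4601 brightest genes 44.1% passed, 1239 of them lower. The arrays of the groups did not overlap in 6 of the 7 members, against 45.3% of all genes: menthol lay lower in 5 of the 7 (21.7% of all genes) and higher in 1 (23.5% of all genes). The median difference was -0.50 over the 7 members and 0.03 over all genes. A change of at least 2-fold past the threshold was seen in 2 of the 7 members and in 1.21% of all genes. The members were chosen with earlier results of these arrays known, so these counts describe the set and are no test of it. In a bulk sample, fewer cells of a kind and less RNA per cell cannot be told apart.

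**Figure D1:**
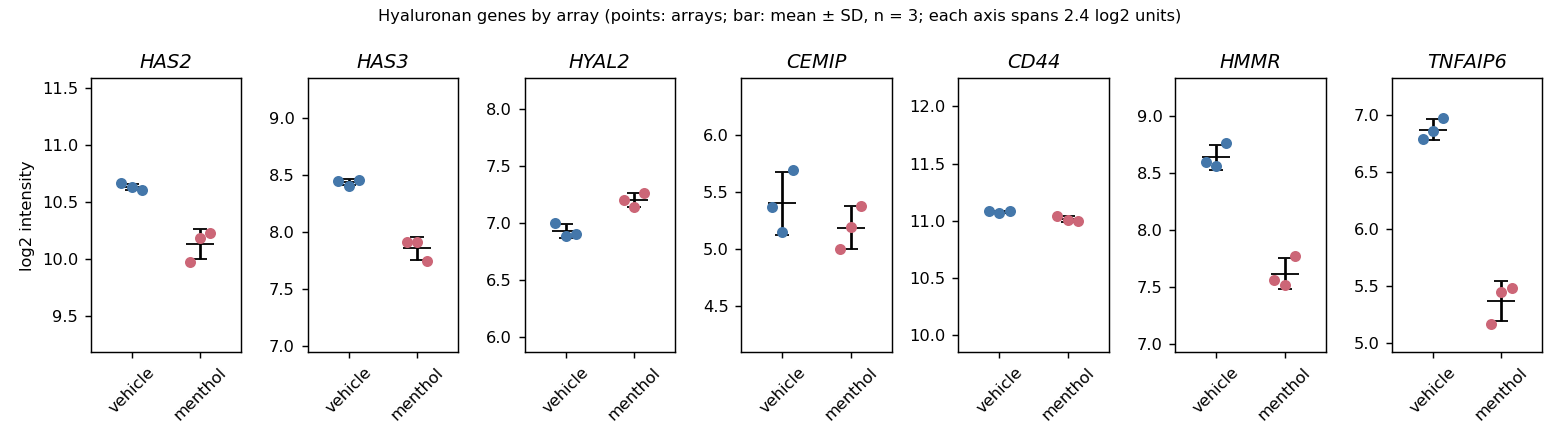
Log2 intensity of the 7 measured hyaluronan genes in the 3 vehicle and 3 menthol arrays. Points are arrays, the horizontal line and bar are the mean and SD (n = 3 per group), and every panel spans the same number of log2 units. The menthol arrays of HAS2, HAS3, HMMR and TNFAIP6 all lie below the vehicle arrays, those of HYAL2 all lie above, CD44 is nearly level, and the groups overlap in CEMIP.

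The synthases draw UDP-glucuronic acid and UDP-N-acetylglucosamine from the cytoplasm and push the growing chain through the membrane. HAS2 is known for very long chains and HAS3 for shorter ones. HAS2 (probeset 8152617) read 10.66, 10.63 and 10.61 on the log2 scale in the vehicle arrays and 9.98, 10.19 and 10.23 in the menthol arrays. All 3 menthol arrays lay below all vehicle arrays, and menthol replicate 1 was the lowest. The means were 10.63 ± 0.03 (SD, n = 3) and 10.13 ± 0.13 (SD, n = 3), a difference of -0.50 ± 0.08 (SE, adjusted p = 0.003 in limma).

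HAS3 (probeset 7996883) read 8.45, 8.41 and 8.46 with vehicle and 7.91, 7.92 and 7.75 with menthol. Again the groups did not overlap, and here menthol replicate 3 was the lowest. The difference was -0.58 ± 0.07 (SE, adjusted p = 0.000906 in limma). The fall of the pair was of similar size on the log2 scale. Within each array, HAS2 minus HAS3 averaged 2.20 ± 0.04 (SD, n = 3) with vehicle and 2.27 ± 0.21 (SD, n = 3) with menthol, and the groups overlapped (exact two-sided permutation p = 0.7). This was 1 of 5 within-array differences between genes tested in the same way, all chosen after the values were seen. With 3 arrays against 3, that test cannot go below 0.10.

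HYAL2 encodes a hyaluronidase anchored to the cell surface that cuts long chains into fragments. Its probeset (8087624) read 7.00, 6.89 and 6.91 with vehicle and 7.20, 7.14 and 7.27 with menthol. The menthol arrays were all higher, by a smaller margin than the synthases were lower. The difference was 0.27 ± 0.07 (SE, adjusted p = 0.0191 in limma). This call ended when vehicle replicate 2, vehicle replicate 3 or menthol replicate 3 was left out, with adjusted p of 0.0711, 0.0623 and 0.0503. Over all alternatives the adjusted p lay between 0.00263 and 0.0711. Within each array, HAS3 minus HYAL2 was 1.50 ± 0.05 (SD, n = 3) with vehicle and 0.66 ± 0.16 (SD, n = 3) with menthol. That difference of -0.85 gave the smallest p the exact permutation test allows (0.1, or 0.12 adjusted over the 5 comparisons), with no overlap between groups. With HAS3 lower and HYAL2 higher in all menthol arrays, this outcome was fixed. It restates the 2 changes and adds no support.

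CEMIP encodes a hyaluronan-binding protein needed for depolymerisation of the polymer by fibroblasts of the skin. Its probeset (7985317) was dim, at the 32.9th percentile of genes by mean signal. It read 5.36, 5.15 and 5.69 with vehicle and 5.00, 5.19 and 5.37 with menthol. The groups overlapped, and the arrays of each group were spread more widely than those of any other measured member. The difference was -0.21 ± 0.15 (SE, 95% interval -0.56 to 0.13, adjusted p = 0.325 in limma), and the interval reaches a fall of 0.56. The value depended on single arrays: it was -0.07 without vehicle replicate 3, -0.12 without menthol replicate 1 and -0.34 without vehicle replicate 2.

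CEMIP2, the transmembrane relative of CEMIP reported to act in hyaluronan breakdown at the cell surface, was among the other pathway genes and rose. It read 6.37, 6.23 and 6.37 with vehicle and 7.11, 7.42 and 7.32 with menthol, with no overlap between the groups. The difference was 0.96 ± 0.09 (SE, adjusted p = 0.000348 in limma), or 1.95-fold. Within each array, CEMIP minus CEMIP2 changed by -1.17 between the groups, which did not overlap (exact permutation p = 0.1, or 0.12 adjusted). The pair was chosen after the values were seen, so this largely restates the rise of CEMIP2 and adds no support.

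GUSB, the lysosomal glucuronidase that removes terminal glucuronic acid from hyaluronan fragments, rose by 0.38 ± 0.06 (SE, adjusted p = 0.00285). Of the 5 other breakdown enzymes with values, 2 rose and 0 fell, CEMIP2 and GUSB, against 29.1% of all genes past the threshold in either direction. Their median difference of 0.19 was 0.11 without vehicle replicate 2, likewise 0.11 under cyclic loess normalization, and 0.67 over the 2 called genes left by either filter on dim genes. The others, HYAL4, SPAM1 and HEXA, lay at or below the 12.2nd percentile by mean signal and their differences ran from 0.12 to 0.19. The dimmest 4601 genes had a median difference of 0.10 on the log2 scale.

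**Figure D2:**
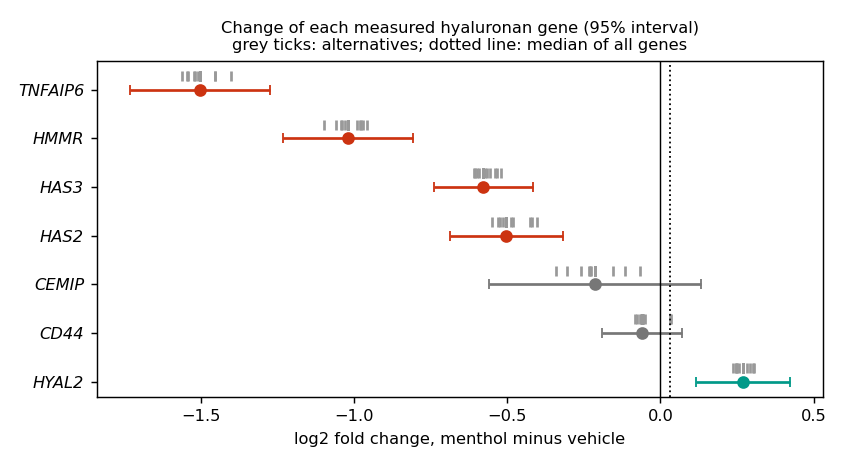
Log2 fold change (menthol minus vehicle) of each measured hyaluronan gene with its 95% interval, red for a fall, green for a rise and dark grey for genes that did not pass. Light grey ticks are the values under the alternative settings, and the dotted line is the median of all genes at 0.03. TNFAIP6, HMMR, HAS3 and HAS2 stay below 0 in every setting shown, HYAL2 stays above, and the CD44 ticks fall on both sides of 0, above it under quantile and cyclic loess normalization.

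CD44 is the main surface receptor for hyaluronan and is made in many splice forms. HMMR, also called RHAMM, binds hyaluronan at the surface and, inside the cell, sits on the mitotic spindle with the kinase activator TPX2. CD44 (probeset 7939341) read 11.08, 11.07 and 11.08 with vehicle and 11.04, 11.00 and 11.00 with menthol. Its menthol arrays were all lower, but by little: the difference was -0.06 ± 0.06 (SE, 95% interval -0.19 to 0.07, adjusted p = 0.456 in limma). The sign turned under quantile normalization (0.03) and cyclic loess normalization (0.03). A single probeset summarises the gene, so its splice forms were not told apart.

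HMMR (probeset 8109712) read 8.59, 8.56 and 8.76 with vehicle and 7.56, 7.52 and 7.77 with menthol. The groups lay apart by far more than the spread within either. The means were 8.64 ± 0.11 (SD, n = 3) and 7.62 ± 0.14 (SD, n = 3), a difference of -1.02 ± 0.09 (SE, adjusted p = 0.000268 in limma). The receptors thus gave unlike values: HMMR minus CD44 within each array changed by -0.96 between the groups, which did not overlap (exact permutation p = 0.1, or 0.12 adjusted). As CD44 was nearly level and the pair was chosen after the values were seen, this restates the fall of HMMR and adds no support.

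The promoters of HMMR and TNFAIP6 are shown because these were the members with the largest differences. They are the 250 bases before the annotated start in RefSeq (GRCh38.p14), 5′ to 3′ on the gene's strand: chr5:163460382-163460631, plus strand, for HMMR and chr2:151357342-151357591, plus strand, for TNFAIP6. Of the 7 measured members, 6 matched an entry of the promoter table. HAS2 did not, so its promoter was not searched. Capitals mark, on either strand, CCAAT (the box bound by NF-Y) in both, TTTGAA (the core of the cell cycle homology region, an element of genes transcribed in G2 and mitosis) in HMMR, and TGANTCA (the AP-1 site) in TNFAIP6.
HMMR: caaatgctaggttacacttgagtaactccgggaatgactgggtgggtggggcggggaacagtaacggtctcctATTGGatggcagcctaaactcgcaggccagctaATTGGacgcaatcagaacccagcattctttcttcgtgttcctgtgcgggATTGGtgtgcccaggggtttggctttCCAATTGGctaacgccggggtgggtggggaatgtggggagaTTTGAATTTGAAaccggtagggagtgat
TNFAIP6: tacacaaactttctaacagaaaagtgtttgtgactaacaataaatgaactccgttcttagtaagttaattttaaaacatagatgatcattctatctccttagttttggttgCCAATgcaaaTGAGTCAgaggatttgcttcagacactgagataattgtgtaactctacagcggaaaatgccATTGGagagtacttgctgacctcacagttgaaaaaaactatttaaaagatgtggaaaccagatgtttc

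The HMMR stretch held 5 CCAAT matches, of which the pair nearest the start overlap, and 2 adjoining TTTGAA matches at -28 and -22 from the start. Of 35116 promoters of the same length, 32.0% held CCAAT at least once and 0.32% held it at least 5 times. TTTGAA was present in 13.3% and at least 2 times in 1.72%, and 4.69% held both motifs. The TNFAIP6 stretch held TGANTCA at -129 and CCAAT at -139 and -68. TGANTCA was present in 6.6% of promoters and together with CCAAT in 2.1%.

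In all, 15 patterns were searched on both strands, chosen after the values were seen. Besides these 3, HMMR held TTNNGNAA (33.2% of promoters), GGGCGG (42.6%) and GGAATG (11.9%), and TNFAIP6 held TTNNGNAA. TTNNGNAA was also found in CEMIP, GGGCGG in HAS3, CEMIP and CD44, and GGAATG in HYAL2. The loose NF-kappaB pattern (54.4%) was found in HAS3, CEMIP and CD44, TATAAA (10.7%) in CEMIP, and CACGTG (6.3%) in HAS3. TTCGAA (1.2%), TTTNGCGC (1.5%) with its forms TTTCGCGC (0.4%) and TTTGGCGC (0.5%), TCACNCCAC (0.9%) and TGACGTCA (1.6%) were found in 0 of the 6 members' stretches. A match describes letters in this window and does not show binding.

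HMMR works at the spindle with a small set of partners, and 8 of these had values. Of the 8, 5 fell and 1 rose, with a median difference of -0.38, against 14.5% of all genes lower and 14.6% higher. Most of the 8 were bright (median percentile 94.4), and of the 4601 brightest genes 44.1% passed, 1239 of them lower. With genes below the median dropped and with the trended prior, DYNLL1 passed too and 6 fell. FAM83D, which brings HMMR to the spindle, fell by 0.59 ± 0.09 (SE, adjusted p = 0.00234). TUBG1, the gamma-tubulin of the microtubule-nucleating ring, fell by 0.50 ± 0.06 (SE, adjusted p = 0.00116). The mitotic kinase AURKA fell by 0.48 ± 0.06 and its activator TPX2 by 0.44 ± 0.07.

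The other members of this group were named after their values were seen. NEDD1, which anchors the gamma-tubulin ring, fell by 0.33 ± 0.10 (SE, adjusted p = 0.0384). Its call was lost without any one of 5 arrays, menthol replicate 3 being the exception, and under quantile and cyclic loess normalization, and 4 partners then fell. BARD1, the partner of BRCA1 in a ubiquitin ligase, rose by 0.32 ± 0.06, and BRCA1 itself was at 0.06 ± 0.09 and did not pass. HMMR's own difference, at -1.02, was larger than that of any of the 8 partners. Of the 5 partners with a promoter entry (NEDD1, TUBG1, BRCA1, BARD1 and DYNLL1), 0 held TTTGAA in the 250 bases and TUBG1 held CCAAT. TPX2, AURKA and FAM83D, which fell, had no entry and were not searched, so HMMR cannot be set against them here. All 5 searched partners held GGGCGG, and single partners held some of the other patterns.

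**Figure D3:**
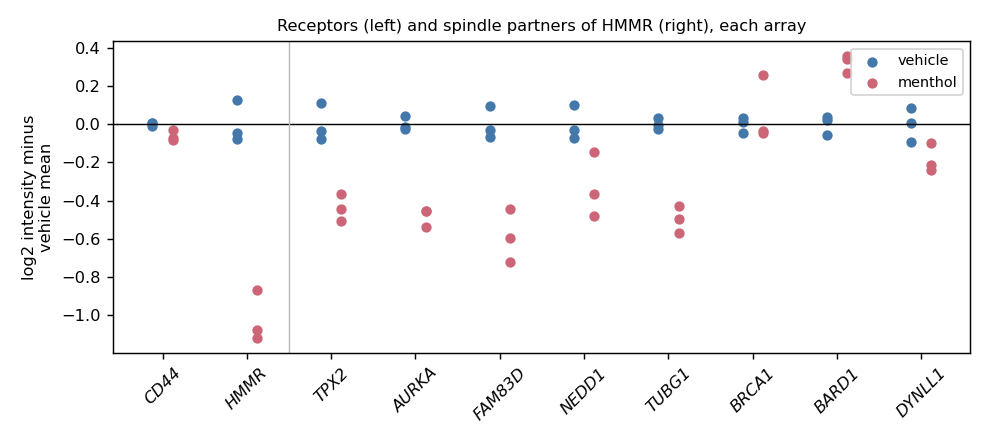
Log2 intensity of CD44, HMMR and 8 spindle partners of HMMR in each array, relative to the gene's vehicle mean. Points are arrays (3 vehicle, 3 menthol). The menthol arrays of TPX2, AURKA, FAM83D, NEDD1, TUBG1 and DYNLL1 all lie below the vehicle arrays, those of BARD1 lie above, BRCA1 overlaps, and HMMR stands lowest.

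TNFAIP6 encodes TSG-6, a secreted protein with a hyaluronan-binding link module. It moves heavy chains of inter-alpha-inhibitor onto hyaluronan and is known as an inflammation-induced gene. Its probeset (8045688) read 6.79, 6.86 and 6.97 with vehicle and 5.17, 5.45 and 5.49 with menthol. The groups lay apart by more than 1 log2 unit, and menthol replicate 1 was the lowest, as it was for HAS2. The means were 6.87 ± 0.09 (SD, n = 3) and 5.37 ± 0.18 (SD, n = 3), a difference of -1.50 ± 0.10 (SE, adjusted p = 7.85e-05 in limma). It ranked 113th of all genes by p. The signal was of middling brightness, at the 45.1st percentile, and the files give no detection call for the menthol arrays.

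PTX3, a long pentraxin that joins TSG-6 and the heavy chains in cross-linking hyaluronan, also fell. It read 9.01, 8.97 and 9.19 with vehicle and 8.16, 8.03 and 8.05 with menthol, without overlap. The difference was -0.98 ± 0.08 (SE, adjusted p = 0.000184). TNFAIP6 minus PTX3 within each array changed by -0.53 (exact permutation p = 0.1, or 0.12 adjusted), with no overlap between the groups. This pair too was chosen after the values were seen. The difference largely restates the larger fall of TNFAIP6 and adds no support.

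Inter-alpha-inhibitor, whose heavy chains TSG-6 moves, has parts encoded by ITIH genes and by AMBP. AMBP, which encodes the bikunin light chain, was at 5.40, 5.55 and 5.36 with vehicle and 5.77, 5.97 and 5.92 with menthol. It rose by 0.46 ± 0.08 (SE, adjusted p = 0.00525) and was dim, at the 38.4th percentile. The heavy chain genes ITIH1 to ITIH5 all lay at or below the 29.1st percentile and did not pass, with differences from -0.17 to 0.32. ITIH4 passed as lower when menthol replicate 3 was left out.

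Of all 17 hyaluronan-binding matrix genes, 4 rose, 1 fell and 12 did not pass, with a median difference of 0.20, a share near the 29.1% of all genes. Without menthol replicate 3, 5 rose and 2 fell, BCAN and ITIH4 passing as well. C1QBP and NCAN are named here after their values were seen. C1QBP was at -0.17 ± 0.06 (SE, adjusted p = 0.063 in limma). It passed as lower with either filter on dim genes and with the trended prior, so that 2 fell. NCAN passed as higher without vehicle replicate 2, and BCAN with array weights, so that 5 rose. HAPLN1, a link protein that fastens proteoglycans to hyaluronan, rose by 1.12 ± 0.17 (SE, adjusted p = 0.00243). It read 3.26, 2.74 and 3.07 with vehicle and 4.31, 3.83 and 4.31 with menthol. Its probeset was dim (percentile 10.9). Among the 4601 genes with the lowest signal, those that rose numbered 473 and those that fell 88. HAPLN4, a link protein of the brain, rose by 0.45 ± 0.12 (SE, adjusted p = 0.0272), but its probesets disagreed in part, and with their mean the difference was 0.24 (adjusted p = 0.172). The HAPLN4 call was also lost when 1 of 4 arrays was left out, vehicle 1, vehicle 3, menthol 1 or menthol 2 (adjusted p from 0.051 to 0.0858), in a range of 0.00278 to 0.172 over its alternatives. VCAN, the large proteoglycan versican, named after its values were seen, rose by 0.37 ± 0.07 (SE, adjusted p = 0.00603).

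The sugar nucleotides that the synthases consume come from enzymes with many other uses, and 7 of their genes had values. Of these 2 rose and 1 fell, against 29.1% of all genes past the threshold. All 7 lay between the 89.2nd and 98th percentile, and of the 4601 brightest genes 44.1% passed. The median difference of the 7 was -0.04. It turned to 0.06 under quantile and 0.04 under cyclic loess normalization and was -0.0047 without menthol replicate 1. UAP1, which makes UDP-N-acetylglucosamine, read 9.73, 9.69 and 9.79 with vehicle and 10.32, 10.36 and 10.51 with menthol. It rose by 0.66 ± 0.07 (SE, adjusted p = 0.000653), without overlap. NAGK, the kinase that salvages N-acetylglucosamine, rose by 0.55 ± 0.07 (SE, adjusted p = 0.000954). PGM1, which interconverts glucose phosphates, fell by 0.31 ± 0.06 (SE, adjusted p = 0.00668). UGDH, which makes UDP-glucuronic acid and is named here after its values were seen, was at -0.17 ± 0.06 (adjusted p = 0.0768). All 3 of its menthol arrays lay below the vehicle arrays. The gene passed with either filter on dim genes and with the trended prior.

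Other receptors had dim probesets, all at or below the 34.8th percentile, and differences from 0.05 to 0.57. Of 6 genes 2 rose and 0 fell, against 29.1% of all genes past the threshold. Their median difference of 0.23 was 0.15 when vehicle 2 or menthol 2 was left out, and likewise under cyclic loess normalization. Of the dimmest 4601 genes 12.2% passed, with a median difference of 0.10. Of the next 4601 genes by signal 22.4% passed, with a median difference of 0.06. TLR2, a pattern receptor that also senses hyaluronan fragments, rose by 0.57 ± 0.15 (SE, adjusted p = 0.0258). The TLR2 call ended when vehicle 2, vehicle 3 or menthol 2 was left out (adjusted p from 0.0503 to 0.0785) and with the replicate number as a block (adjusted p = 0.0534), in a range from 0.00435, and without menthol replicate 3 TLR4 passed as well, so that 3 rose. TLR4 and the genes that follow after LAYN were named after their values were seen. LAYN, which encodes the receptor layilin, rose by 0.35 ± 0.08 (SE, adjusted p = 0.0142), and with the mean of its probesets the difference was 0.15 (adjusted p = 0.0922, in a range from 0.00636). LYVE1, STAB1 and STAB2, the receptors of lymphatic and sinusoidal endothelium, did not pass (0.05 to 0.20).

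Around CD44, 7 genes of membrane partners, ligand and splicing had values. Of these 1 rose and 2 fell, against 29.1% of all genes past the threshold. The median percentile of the 7 was 92.1, and of the 4601 brightest genes 44.1% passed. Their median difference was -0.10. It was -0.02 under quantile normalization, -0.06 under cyclic loess normalization and -0.07 without menthol replicate 3. MMP14, a membrane protease that can release CD44 from the surface, read 7.76, 7.69 and 7.76 with vehicle and 8.46, 8.58 and 8.53 with menthol, and rose by 0.79 ± 0.06 (SE, adjusted p = 0.000174). The linker gene RDX, which ties membrane receptors to actin, fell by 0.26 ± 0.07 (SE, adjusted p = 0.0221). The tumour suppressor gene NF2, whose product merlin competes with such linkers, fell by 0.28 ± 0.06 (SE, adjusted p = 0.0139). RDX did not pass under quantile (adjusted p = 0.103) or cyclic loess normalization (adjusted p = 0.0628) or when vehicle 2, vehicle 3 or menthol 2 was left out, and NF2 did not pass without vehicle replicate 1 or 3, so that without vehicle replicate 3 neither passed. The splicing regulator ESRP2 was at -0.18 ± 0.08, the ligand gene SPP1 at 0.02 ± 0.08 and the sheddase ADAM10 at 0.01 ± 0.07, all named after their values were seen, and none passed.

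**Figure D4:**
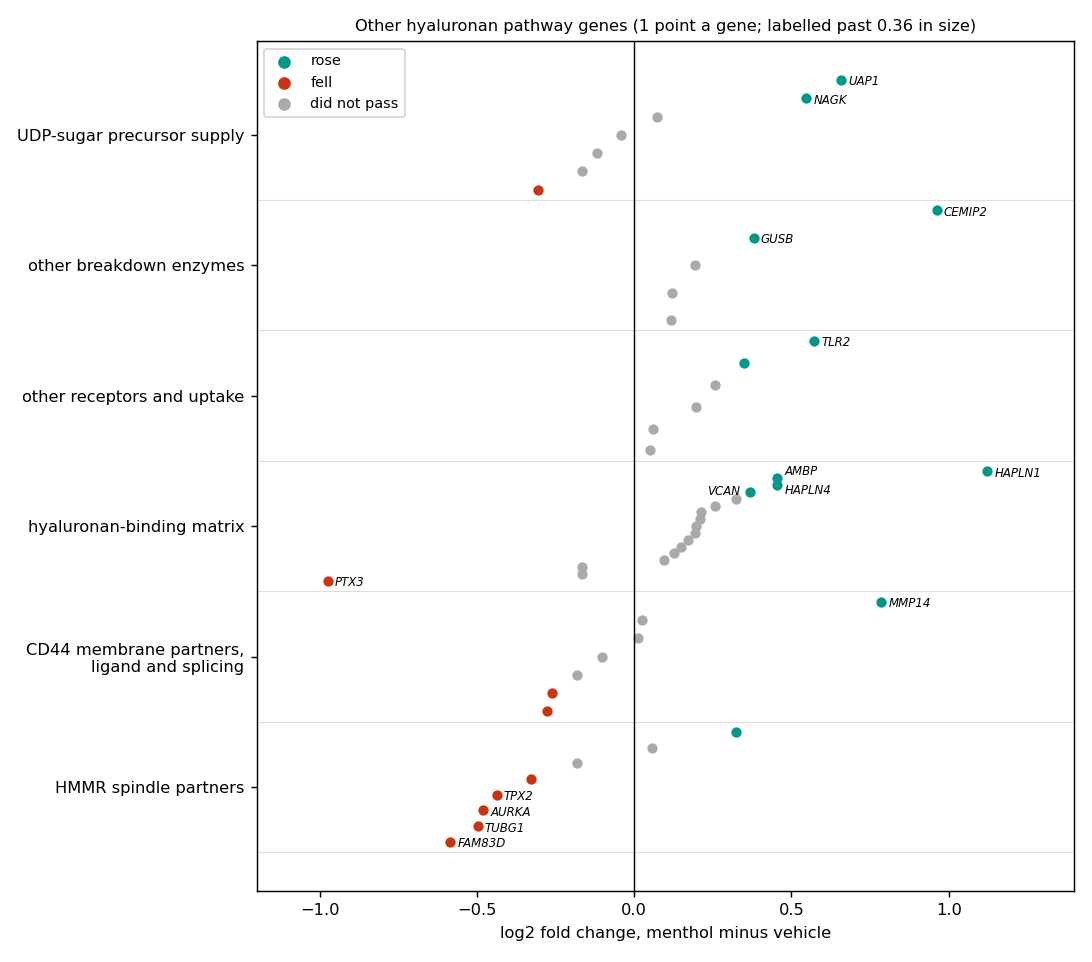
Log2 fold change (menthol minus vehicle) of the other hyaluronan pathway genes with values, 1 point a gene, in 6 lists. Green genes rose, red genes fell and grey genes did not pass the adjusted threshold, and names are given for called genes past 0.36 in size. HAPLN1, CEMIP2 and MMP14 lie farthest to the right and PTX3 farthest to the left, and the 5 red points of the spindle partners stand together below 0.

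Over all 6 lists, 50 of 55 pathway genes had values, of which 12 rose, 9 fell and 29 did not pass, against 29.1% of all genes past the threshold. Their median difference was 0.12. The arrays of the groups did not overlap in 26 of the 50, against 45.3% of all genes.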

How the data were processed

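RNA from 6 PC-3 samples (300 ng total RNA each) was hybridised to Affymetrix whole-transcript arrays. The authors deposited 1 table of intensity values for 32321 probesets, with RMA named in the submitters' processing notes. The deposited intensity values ran from 1.57 to 14835, a linear scale, so log2 was taken. The number of arrays limits the precision. Genes were named from the platform annotation: 19158 probesets had 1 symbol, 1388 several and 11775 none named here. The brightest probeset of each gene was kept, 18404 genes in all.

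limma 3.58.1 (R 4.3.3; lmFit and eBayes) compared the groups with no further term. Tests were two-sided, p-values were adjusted over all genes by Benjamini-Hochberg, and the threshold was 0.05. The script was tested on simulated data. Promoters came from RefSeq (GRCh38.p14). Figures used matplotlib 3.10.9.

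The members and lists were chosen with earlier results of these data known. The text names all measured members, and from each other list up to 4 called genes with the largest change. Genes outside that rule are said to be chosen after their values were seen or are given in ranges. Same-numbered arrays showed little shared deviation over all genes (correlations of 0.01, -0.01 and 0.09). Alternatives covered normalization, dim-gene filters, probesets, prior, array weights, replicate block, threshold and each array left out.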

Additional observations from a re-analysis of the deposited data

How the results depend on the processing

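The calls on HAS2, HAS3, HMMR and TNFAIP6 held under every alternative in which the gene was tested, with differences from -0.55 to -0.40, -0.61 to -0.52, -1.10 to -0.96 and -1.56 to -1.40. TNFAIP6 could not be tested with genes below the median dropped. HYAL2 stayed positive (0.24 to 0.30) and did not pass at a threshold of 0.01, under which 4 members passed. CD44 reversed under quantile (0.0335) and cyclic loess normalization (0.0302), and the cause was not tested. When single arrays were left out, 4 to 5 members, 16 to 24 other pathway genes and 3839 to 4828 of all genes passed. At the threshold of 0.01, 2841 of all genes passed. With the replicate number as a block, 5 members, 20 other pathway genes and 4868 of all genes passed, and of the genes named by rule TLR2 alone lost its call (adjusted p = 0.0534). The pairing check found little shared deviation over all genes, so numbers are treated as names. As a correlation over all genes, it cannot settle pairing for a single gene. RMA gives no detection call, so dim probesets are described by their percentile alone.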

Other observations

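The spread between arrays was larger with menthol than with vehicle in 6 of the 7 measured members, CEMIP being the exception, and in 59.7% of all genes. The lowest menthol array was replicate 1 for HAS2, CEMIP and TNFAIP6, replicate 2 for HYAL2 and HMMR, and replicate 3 for HAS3 and CD44, so no single array was lowest throughout.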
